A study of Mus musculus with 6 samples.

Results

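Zfp genes, which encode zinc finger proteins, were examined in the list of H3K9me3 peaks that were present in wild-type (WT) Bergmann glia and absent in Setdb1 mutant Bergmann glia (BG). Members were the peaks whose nearest transcription start site (TSS) belonged to a gene named Zfp and a number, apart from Zfp369, Zfp808, Zfp960 and Zfp982, which were left out. They were 592 of 34673 peaks and 215 of 12948 genes named in the list. BG are the radial astroglia of the cerebellar cortex. H3K9me3, a histone H3 methylated 3 times at lysine 9, marks chromatin that is kept silent.

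ChIP-seq was run at postnatal day 10 on BG of cerebellum from C57BL/6 mice, with 2 WT libraries, 2 mutant libraries (MT in the labels) and 2 control libraries whose labels name both input and IgG. By the study's methods, BG were sorted by the Nes-GFP transgene, and mutant BG also had floxed Setdb1 deleted by mGFAP-Cre, a Cre that is active in granule neuron progenitors and oligodendrocytes as well as BG. Whether the libraries of a genotype came from separate animals or from pools was not stated. The list merges the libraries, so neither the depth of a library nor a spread between replicates was available, and WT and mutant BG could not be compared by a test. Values below are counts and shares with 95% Wilson intervals, and differences with 95% Newcombe intervals. These cover counting error only, and neighbouring peaks, related genes and copies of a repeat are not independent. The list holds no expression values, so the labelled cell type was not checked against marker genes.

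Most Zfp proteins bind DNA through an array of C2H2 zinc fingers, in which 2 cysteines and 2 histidines hold a zinc ion. Many also carry a KRAB domain, which recruits Trim28 and, through it, the methyltransferase Setdb1, which places H3K9me3. Such KRAB zinc finger proteins are best known for the silencing of retrotransposons, and their genes tend to lie side by side in families made by duplication, with the finger array encoded in the last exon. H3K9me3 over the 3' end of zinc finger genes has been described in many cell types.

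The sequence under the strongest peaks in last exons shows this array. For the 6 highest scoring last exon peaks that covered several whole fingers and were assigned to their own gene, a finger near the centre of the peak is given with its linker, as 28 codons of the coding strand (84 bases, RefSeq, GRCm38.p6). Capitals mark the codons of the 2 cysteines and 2 histidines. They lie at chr11:62780187-62780270 (minus strand) for Zfp286, chr6:48025130-48025213 (minus) for Zfp777, chr8:85110220-85110303 (minus) for Zfp791, chr7:24291453-24291536 (minus) for Zfp61, chr5:143244784-143244867 (plus) for Zfp12 and chr4:49530384-49530467 (plus) for Zfp189.
Zfp286: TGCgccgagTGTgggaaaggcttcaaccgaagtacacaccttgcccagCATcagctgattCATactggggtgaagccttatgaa
Zfp777: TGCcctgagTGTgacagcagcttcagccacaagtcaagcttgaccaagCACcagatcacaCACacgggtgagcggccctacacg
Zfp791: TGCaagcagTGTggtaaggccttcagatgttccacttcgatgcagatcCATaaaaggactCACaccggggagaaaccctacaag
Zfp61: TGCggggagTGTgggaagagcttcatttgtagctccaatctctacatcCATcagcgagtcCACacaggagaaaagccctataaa
Zfp12: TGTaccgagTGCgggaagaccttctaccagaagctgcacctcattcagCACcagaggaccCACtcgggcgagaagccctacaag
Zfp189: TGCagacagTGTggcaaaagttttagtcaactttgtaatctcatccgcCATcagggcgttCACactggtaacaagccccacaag
Over 14 fingers taken in this way, 13 from last exon peaks and 1 from a peak at Zfp97 that was classed as 3' UTR, pairs were identical at a median of 57.1% of their bases (40.5% to 70.2%), and 14 of 84 positions held the same base in all of them. The fingers were picked by their cysteine and histidine codons, which begin with TG and CA. Part of this identity is thus set by the choice.

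Of 393 protein-coding Zfp genes of the annotation, 210 were the nearest gene to at least 1 peak (53.4%, 48.5 to 58.3), beside 47.9% of all 21774 protein-coding genes. The Zfp share was 5.64 points above that of the other coding genes (0.649 to 10.6). It was 18.4 points (9.69 to 26.6) above the share in 180 genes that encode 5 or more C2H2 fingers under other names, of which 63 had a peak (35%, 28.4 to 42.2). Peaks were matched to genes by name, so a gene that the authors' list lacks or names otherwise counts as having none. Gm28455, 1 of the 180, had a peak over its last coding exon that was classed as intergenic and assigned to Zfp619. How far this lowers the share of 35% was not tested. Among C2H2 families chosen by symbol, 12 of 27 Zkscan and Zscan genes, 14 of 41 Zbtb genes, 24 of 29 genes named Klf or Sp, 3 of 5 Zic genes and 5 of 6 Gli and Glis genes had a peak. Sp100 and Sp110, which are no C2H2 genes, are counted among those named Sp. Of 22 genes chosen for a role in silent chromatin, 9 had a peak (40.9%), beside 47.9% of all coding genes. These 9 were H3f3a, Pphln1, Morc3, Ehmt1, Cbx3, Smarcad1, Dnmt1, Atrx and Atf7ip, the partner of Setdb1. Setdb1 and Trim28 had none. The other 5 members were not protein-coding by the annotation and included Zfp652os and Zfp85os, which are antisense to or beside Zfp genes.

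Peaks were spread unevenly over the members. Of 215 genes, 86 had 1 peak, 46 had 2, 35 had 3 and 35 had 5 or more, as the plot of peaks per gene shows.

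**Figure D1:**
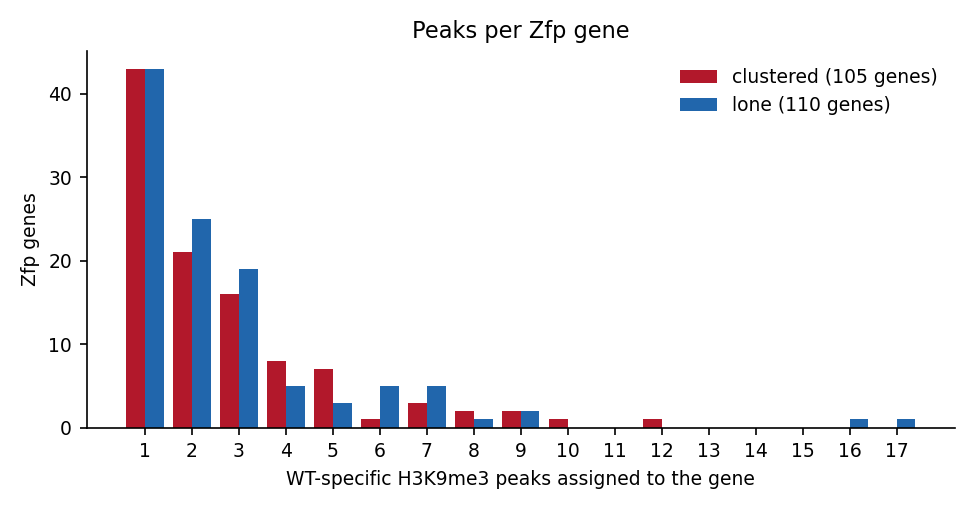
The horizontal axis gives the number of WT-specific H3K9me3 peaks assigned to a gene and the vertical axis the number of Zfp genes. Red bars are 105 genes with another Zfp gene of the list within 200 kb (clustered) and blue bars 110 genes without (lone). In both groups 43 genes had 1 peak, and the 2 genes with 16 and 17 peaks were lone.

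Zfp507 (gene ID 668501, chr7:35772343-35803000) had 17 peaks and Zfp536 (243937, chr7:37318023-37774039), a repressor of neuronal differentiation, had 16. The genes lie 1515 kb apart. The scores of the peaks, a measure of peak strength deposited by the authors on a scale that was not stated, ran from 5.13 to 17.3 at Zfp507 (median 7.06) and from 5.46 to 9.95 at Zfp536 (median 5.94). Of 17 peaks at Zfp507, 15 were intergenic and none lay inside the gene, and the farthest was 373 kb from the TSS. At Zfp536, the authors classed 13 of 16 as intergenic and 3 as intron. By RefSeq 9 lay inside the gene, namely these 3 and some of those classed as intergenic. The farthest was 500 kb away. No stretch of 100 bases (a 100-base word) that occurs again in the genome lay in 17 of 17 and 15 of 16 of these peaks, beside 75.5% of all peaks, although 7 and 4 of them were centred on an annotated repeat.

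The opposite was found at Zfp781 (331188, chr10:81901911-81930512) and its neighbour Zfp433 (73610, chr10:81704747-81721976), which had 10 and 9 peaks. None of these 19 peaks was free of repeated words, and the median share of repeated words was 74.7% at Zfp781 and 100% at Zfp433. Of 10 peaks at Zfp781, 9 were placed in an intron of Gm3055, 5 lay inside Zfp781 and 7 were centred on a repeat. Since the authors kept only the best location of a read that matches several, the place of such a peak among copies is uncertain. Of 9 peaks at Zfp433, 2 lay inside the gene. The list measured some peaks of both genes to a TSS outside the RefSeq gene given here. Examples are chr10:81840853-81841353 for Zfp433 and chr10:81748304-81748934 for Zfp781. These counts can thus pool more than 1 annotated copy under a name.

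Zfp985 on chromosome 4 had 12 peaks with scores from 5.46 to 36.9 (median 15.2), of which 8 lay in an intron of Zfp982, up to 189 kb from the TSS of Zfp985. Zfp991 and Zfp980, also on chromosome 4, had 8 peaks each, with medians of 9.63 and 8.99, and none of these 16 peaks was free of repeated words. Zfp354c on chromosome 11 had 9 peaks, of which 6 lay in introns of its neighbour Adamts2, a procollagen protease. Zfp386 and Zfp706 also had 9 each, 8 and 9 of them intergenic. So a count of peaks assigned by the nearest TSS is not a count of peaks in the gene.

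Members with a known role were taken from a list of 29, of which 22 had a peak (75.9%, 57.9 to 87.8), beside 53.4% of Zfp coding genes and 47.9% of all coding genes. The list was chosen with results of these data known, and nothing is read from this share. Zfp423, a regulator of cerebellar development, had 7 peaks with scores from 5.78 to 9.31, 5 of them in an intron. Zfp64 had 7, with scores from 6.10 to 12.8. Zfp462, Zfp804a and Zfp365 had 5 each, and the strongest of these scored 11.2, 17.0 and 14.8. Zfp521, a transcription factor of neural and blood progenitors, had 3 intergenic peaks, the nearest 289 kb from its TSS. Zfp703 had 3 peaks, and Zfp281, Zfp382, Zfp541, Zfp608, Zfp618, Zfp689 and Zfp750 had 1 or 2 each, with scores of at most 11.6.

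Among members known for silencing, Zfp809, which binds the primer binding site of murine leukaemia viruses, had 1 peak (score 6.42), in an intron on an ORR1B1 repeat, 9.80 kb from its TSS. Zfp568, which silences a placental transcript of Igf2, had 1 in an intron (7.06). Zfp932 had 4 peaks, 4 of them on repeats (scores 5.78 to 12.2), and Zfp819 had 1, in its last exon (7.06). Zfp57, the keeper of imprinted methylation, had none, like Zfp708, Zfp36, Zfp143, Zfp148, Zfp335 and Zfp91. Genes of the mRNA decay factors Zfp36l1 and Zfp36l2, whose fingers are of another type, had 1 and 4 peaks. A gene listed with no peak may still carry H3K9me3 that was not lost in mutant BG.

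Promoters were seldom hit. Of 592 member peaks, 3 were classed as promoter peaks (0.507%, 0.172 to 1.48), beside 0.805% of all peaks. The strongest was at Zfp42 (Rex1), a marker of pluripotent cells, with a score of 10.9 and its centre 59 bp from the TSS. The other 2 scored 5.78 at Zfp626 and 6.74 at Zfp445, at -89 bp and -979 bp from the TSS. The RefSeq promoter of Zfp42 is shown because this peak was the strongest of the 3. The peak covered 191 of the 250 bases (chr8:43307010-43307259, minus strand, GRCm38.p6), and CG dinucleotides, the sites of DNA methylation, are in capitals.
Zfp42 promoter: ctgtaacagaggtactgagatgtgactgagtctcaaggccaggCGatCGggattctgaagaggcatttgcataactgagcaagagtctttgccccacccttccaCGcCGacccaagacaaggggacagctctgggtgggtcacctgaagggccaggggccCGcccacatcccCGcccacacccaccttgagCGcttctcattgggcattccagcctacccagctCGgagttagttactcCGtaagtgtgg
It holds 9 CG, and 40.3% of 32851 promoters of the same length hold as many or more (median 6).

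Of the member peaks, 328 were intergenic (55.4%, 51.4 to 59.4), 200 lay in introns (33.8%), 34 in exons, 15 at transcription termination sites (TTS) and 9 in 3' UTRs. Exons took 5.74% (4.14 to 7.92) of member peaks and 2.91% of all peaks. A peak lay inside the gene it was assigned to in 225 cases (38.0%), 10.4 points (6.55 to 14.4) above the share of 27.6% in all other peaks. Within 10 kb of the TSS lay 155 peaks (26.2%), beside 19.4% of all peaks.

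The repeats under member peaks were close to those under other peaks. Of 592 peaks, 325 were centred on a repeat (54.9%), beside 54.0% of all other peaks. LTR elements, the remains of retroviruses, held 162 peaks (27.4%), 0.808 points from the other peaks (-2.66 to 4.57). The ERVK family held 82 (13.9%) and LINE elements 91 (15.4%), with differences of 0.868 (-1.71 to 3.90) and -1.23 points (-3.94 to 1.92). Peaks without a repeated word were fewer among members, with 64.2% beside 75.7% of the other peaks, a difference of -11.5 points (-15.5 to -7.71).

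Scores were somewhat higher than elsewhere. The median was 7.38, beside 7.06 over all peaks, and 201 of 592 member peaks (34.0%) reached the upper quartile of all peaks, a score of 8.34. This was 6.62 points above the share in other peaks (2.89 to 10.6). The highest scores lay on chromosome 4, at 64.5 near Zfp981, on an Lx element 21.4 kb upstream, and 60.7 in an intron of Zfp992. The next were 41.1 at Zfp600 and at Zfp976. These 4 genes were chosen after their values were seen.

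A last exon peak was a peak that the authors placed in exon n of n exons. There were 23 of these among 592 member peaks (3.89%), beside 0.894% of all peaks, and the share was 3.04 points above that in the other 34081 peaks (1.76 to 4.92). All 23 lay in the last exon of a Zfp gene, 19 in the gene they were assigned to and 4 in the exon of a neighbouring Zfp gene. Of the latter, 1 assigned to Zfp2 lay in Zfp354b, 2 assigned to Zfp235 lay in Zfp112 and 1 assigned to Zfp599 lay in Zfp810.

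The strongest last exon peak was that of Zfp286, at chr11:62779457-62781061 with a score of 26.3. It was 1604 bp wide and covered the whole last coding exon of 1214 bp, with all 10 of its fingers. Zfp777 followed with a score of 21.2 and 4 fingers in a peak of 500 bp. The next scores were 13.2 at Zfp791, 12.5 at Zfp358, 12.2 at Zfp61, 11.6 at Zfp941, 10.9 at Zfp12, 10.3 at Zfp2 (in Zfp354b) and at Zfp980, and 9.31 at Zfp189. Peaks at Zfp791, Zfp61, Zfp12 and Zfp189 held 5 or 6 whole fingers. Those at Zfp358 and Zfp980 held none, since they lay over the start of the exon, ahead of the array.

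Last exon peaks were compared with the other 569 member peaks. Their median score was 8.66 (quartiles 6.74 and 11.2, range 5.46 to 26.3), against 7.38 (6.10 and 8.99, range 5.13 to 64.5), so the ranges overlapped throughout. At or above the median of all peaks were 14 of 23 (60.9%, 40.8 to 77.8) and 57.1% of the others, a difference of 3.75 points whose interval spans 0 (-16.7 to 21.2). At or above the upper quartile were 13 of 23 (56.5%, 36.8 to 74.4) and 33.0% of the others, a difference of 23.5 points (3.38 to 41.7). With 1 peak a gene and class, the shares were 63.6% and 76.2%, a difference of -12.6 points whose interval spans 0 (-33.9 to 5.19). A gene with several other peaks has more chances to reach the median by its strongest one. Few genes had more than 1 last exon peak, so the classes are not alike in this count. Peaks wider than the standard 500 bp were 34.8% and 26.0%, a difference of 8.77 points (-7.64 to 29.4).

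**Figure D2:**
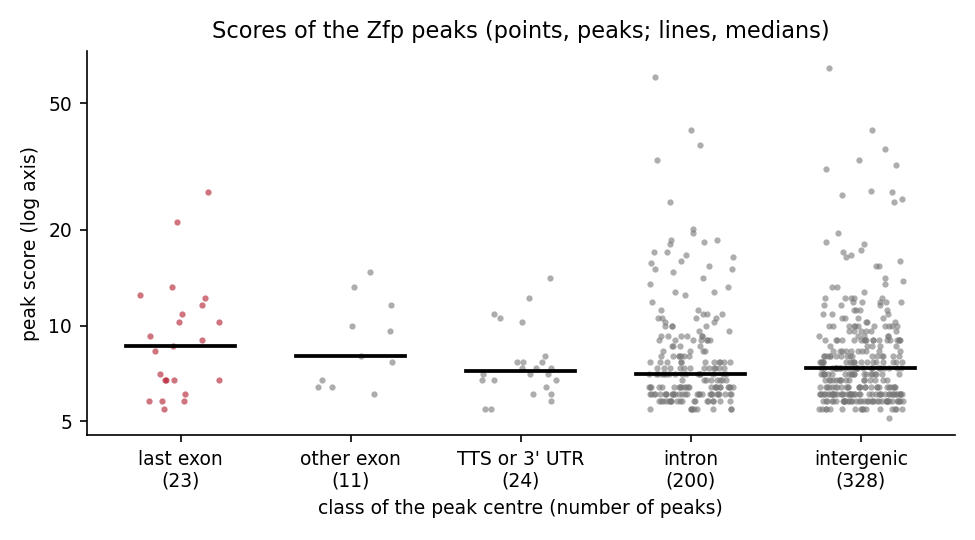
Scores of member peaks are plotted on a log axis by the class of the peak centre, with 1 point a peak and lines at the medians (6 promoter, non-coding and 5' UTR peaks are not drawn). The median of the 23 last exon peaks was 8.66, and the points of all classes overlap, with the scores above 30 in introns and intergenic sequence.

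A C2H2 pattern was a reading of cysteine, 2 residues, cysteine, 12 residues, histidine, 3 residues and histidine in any of the 6 frames. It was present in 18 of 23 last exon peaks (78.3%, 58.1 to 90.3), beside 0.315% of all peaks, and in 12 of 569 other member peaks (2.11%, 1.21 to 3.65). The difference was 76.2 points (55.9 to 88.3). All 23 lay in the last exon of a Zfp gene, where the array is mostly encoded. The difference thus largely follows from how the class was defined, and nothing is read from it about H3K9me3. Of 33 peaks in the whole list with 3 or more patterns, 20 were members. None of the last exon peaks was centred on a repeat, against 57.1% of the others, which were mostly intergenic or in introns. This contrast, too, depends on where the classes lie. Of the last exon peaks, 18 of 23 held no repeated word (78.3%), beside 75.5% of all peaks. The difference from the other member peaks (63.6%) was 14.6 points and its interval spans 0 (-5.89 to 27.4). In the other 5 the share of repeated words was 30.4% at Zfp955b, 32.8% at Zfp354b, 41.1% at Zfp354a, 73.4% at Zfp980 and 100% at Zfp781.

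To set peaks beside exons rather than beside other peaks, the last coding exon of each gene was searched for any overlapping peak, whichever gene it was assigned to. It was overlapped in 36 of 393 Zfp genes (9.16%, 6.69 to 12.4), beside 2.78% of all coding genes. The difference from genes without a finger array was 6.52 points (4.04 to 9.79), and from other genes with 5 or more fingers, of which 11 of 180 were overlapped (6.11%), it was 3.05 points (-2.08 to 7.26).

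Exon length moved with this result. The median last coding exon was 1325 bp in Zfp genes and 177 bp in coding genes without an array. Among exons of 1000 to 2000 bp, 27 of 232 were overlapped in Zfp genes (11.6%, 8.12 to 16.4), against 81 of 1250 in genes without an array (6.48%, 5.24 to 7.98), a difference of 5.16 points (1.34 to 10.1). At this length the difference from other genes with 5 or more fingers (7 of 97, 7.22%) was 4.42 points (-3.36 to 10.4). Over 2000 bp the shares in Zfp genes and genes without an array were 4 of 44 (9.09%, 3.59 to 21.2) and 30 of 299 (10.0%, 7.12 to 13.96). At 500 to 1000 bp they were 2 of 58 (3.45%) and 145 of 3621 (4.00%). Up to 500 bp they were 3 of 59 (5.08%, 1.74 to 13.9) and 303 of 16027 (1.89%, 1.69 to 2.11). Per Mb of last coding exon, 56.1 peaks were centred in Zfp genes (29 peaks, exact Poisson interval 37.6 to 80.6), 33.7 in other finger genes (13.5 to 69.4) and 38.5 in genes without an array (34.3 to 43.0). The Zfp density was thus the highest of these, with an interval that overlaps both others.

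**Figure D3:**
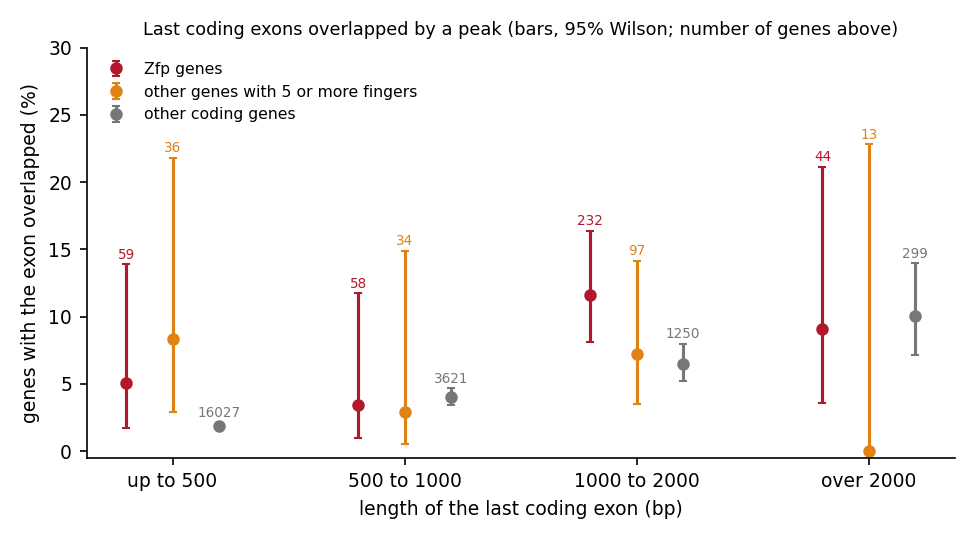
The share of genes whose last coding exon was overlapped by a peak (%, points, with 95% Wilson bars and the number of genes above) is given by exon length in bp for Zfp genes, other genes with 5 or more fingers and the remaining coding genes. Zfp genes sit above the remaining genes at 1000 to 2000 bp (11.6% and 6.48%), and the bars of these groups overlap at every other length.

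The number of fingers showed no steady order. The exon was overlapped in 2 of 74 Zfp genes with no finger in it (2.70%, 0.744 to 9.33), 4 of 41 with 1 to 4 (9.76%), 7 of 74 with 5 to 9 (9.46%), 17 of 135 with 10 to 14 (12.6%, 8.01 to 19.2) and 6 of 69 with 15 or more (8.70%). The intervals of all these shares overlap.

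There were 37 peaks over these 36 exons, of which 30 were members. The rest carried the gene names Galp, Bms1, Mbp, Olfr856-ps1, Mfn1, D3Ertd254e and Zfp982. By RefSeq they lay over Zfp444, Zfp248, Zfp236, Zfp317, Zfp639, Zfp267 and Zfp988. Names were matched as given, and whether D3Ertd254e is another name of Zfp267 was not checked. The rule by gene name thus missed 6 of these peaks, and the 1 over Zfp988 was set aside with Zfp982. At least 1 whole finger lay in 29 of 37 peaks.

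**Figure D4:**
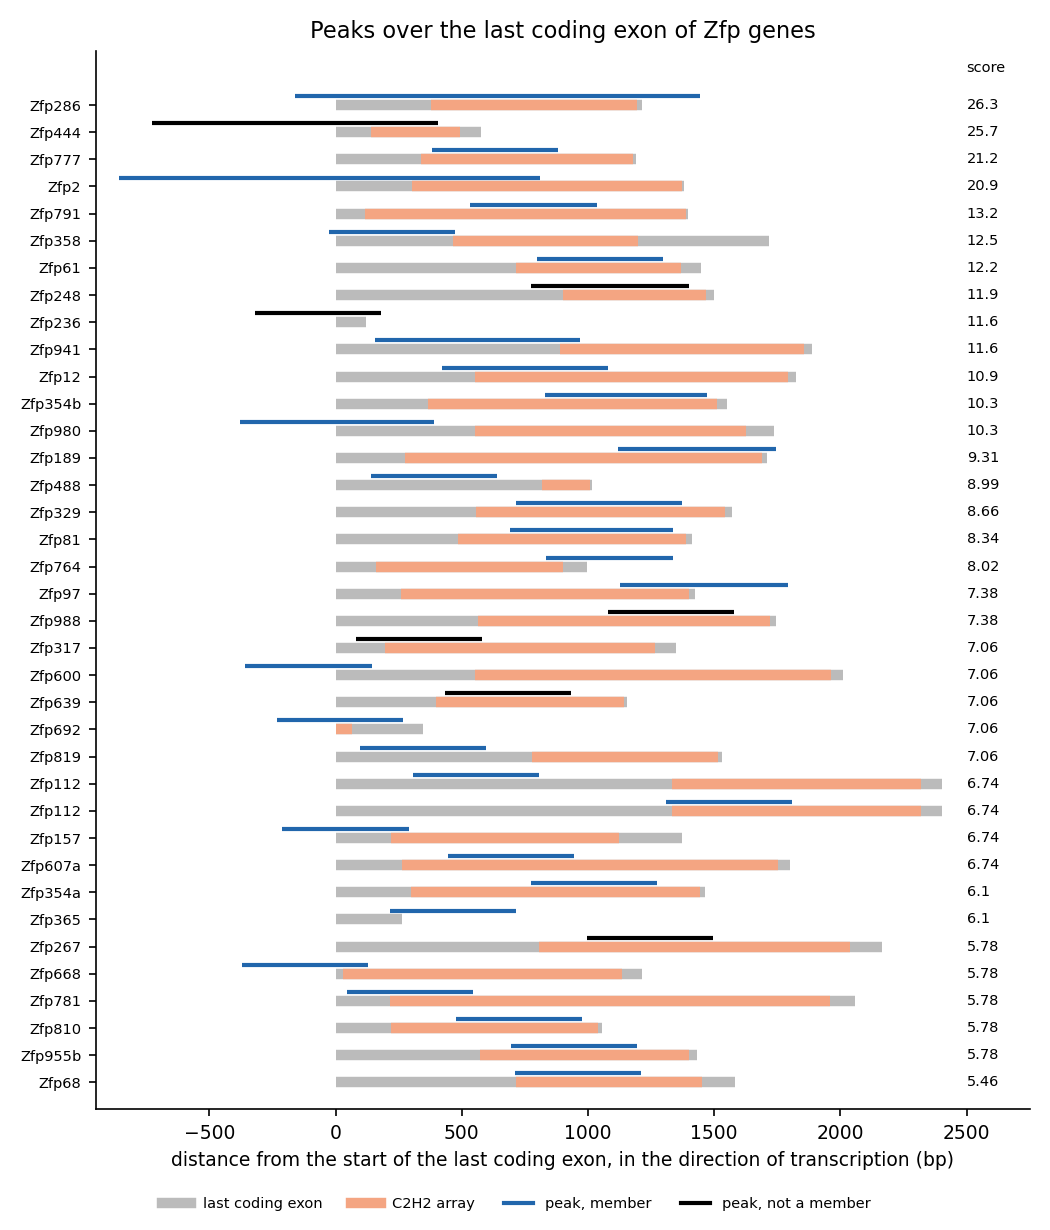
Each row is a peak over the last coding exon of a Zfp gene, drawn in bp from the start of the exon in the direction of transcription and ordered by score (right). Grey bars are the exon, orange bars the C2H2 array, blue lines member peaks and black lines the 7 peaks that are not members. The centre of 22 of 37 peaks is inside the array.

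Of the length of all Zfp last coding exons, 61.7% was array, from the first finger to the last. Of 29 peaks centred in these exons, 22 were centred in the array (69.0 per Mb, exact Poisson interval 43.2 to 104) and 7 outside it (35.4 per Mb, 14.2 to 73.0). The intervals overlap, so a preference for the array within the exon was not resolved at this number of peaks.

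Clustered members, 105 genes with another Zfp gene of the list within 200 kb between gene bodies, had 283 peaks. The 110 lone members had 309. Their nearest Zfp genes in the list lay at a median of 29.8 kb and 4560 kb. A neighbour counted only if it had a peak too, so a lone member can lie beside Zfp genes without one. Of the protein-coding members, 108 were lone in the list and 86 were lone by the annotation. Scores, repeats and peak positions of the groups were not compared with neighbours taken from the annotation. Peaks per gene were close, with a mean of 2.70 in clustered and 2.81 in lone genes and a median of 2 in both. The shares of genes with 5 or more peaks were 16.2% and 16.4%, a difference of -0.173 points (-10.1 to 9.86).

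A last exon peak was assigned to 15 of 105 clustered genes (14.3%, 8.85 to 22.2) and 7 of 110 lone genes (6.36%, 3.12 to 12.6). The difference of 7.92 points has an interval that spans 0 (-0.316 to 16.5). Finger arrays also differed between the groups, since 94 of 105 clustered and 54 of 110 lone genes had 5 or more fingers in the last coding exon. Among genes with such an array the shares were 15 of 94 (15.96%) and 6 of 54 (11.1%), a difference of 4.85 points (-7.78 to 15.4). When 3' UTR peaks were counted too, or overlap with the last coding exon of a Zfp gene was used, the difference became 10.9 points (1.67 to 20.2), and with 100 kb in place of 200 kb it was 1.71 points. The 4 last exon peaks in the exon of a neighbouring gene were all assigned to clustered genes. Without them the shares were 12 of 105 (11.4%) and 6.36%, a difference of 5.06 points (-2.75 to 13.2).

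Over all annotated Zfp coding genes, with neighbours taken from the annotation, 124 of 246 clustered genes had a peak (50.4%) and 86 of 147 lone genes (58.5%), a difference of -8.10 points (-17.9 to 2.09). Their last coding exon was overlapped in 10.6% and 6.80%, a difference of 3.77 points (-2.42 to 9.18). Neither direction was thus resolved.

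Scores differed between the groups, by an amount that depended on the cut. The median of all peaks was reached by 61.5% of clustered and 53.4% of lone peaks, a difference of 8.09 points (0.112 to 15.9). The upper quartile was a cut chosen after seeing the data. The median was 7.70 in clustered and 7.06 in lone genes, and 117 of 283 (41.3%, 35.8 to 47.2) and 84 of 309 peaks (27.2%, 22.5 to 32.4) reached the upper quartile, a difference of 14.2 points (6.52 to 21.6). Repeated sequence also differed, since 51.2% of clustered and 76.1% of lone peaks held no repeated word, a difference of -24.8 points (-32.1 to -17.1). Among peaks with no repeated word the upper quartile was reached by 39.3% of clustered and 23.0% of lone peaks, a difference of 16.3 points (6.80 to 25.8). Without chromosome 4, which holds the highest scores, the difference was 12.6 points (4.58 to 20.4). Peaks of clustered genes were also more often inside their gene, at 43.5% against 33.0% (difference 10.5 points, 2.62 to 18.1), and on LINE elements, at 19.4% (15.2 to 24.4) against 11.7% (8.54 to 15.7).

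**Figure D5:**
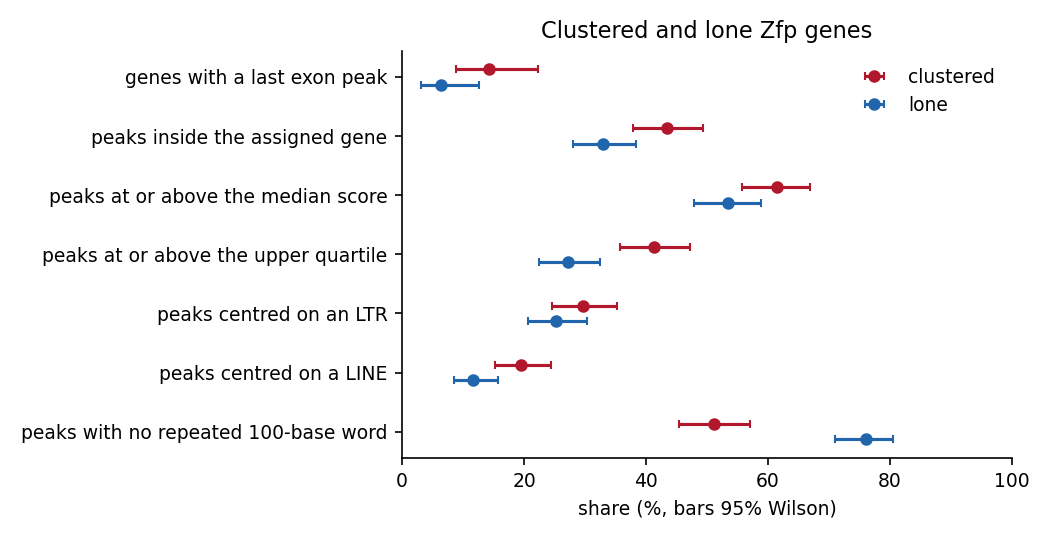
Shares (%) of 105 clustered and 110 lone Zfp genes, or of their 283 and 309 peaks, are plotted with 95% Wilson bars. The bars of clustered (red) and lone (blue) members are apart for the upper quartile of the score (41.3% and 27.2%) and for peaks with no repeated word (51.2% and 76.1%), and overlap for last exon peaks (14.3% and 6.36%). They also overlap for the median score (61.5% and 53.4%).

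The list held 32 clusters, of 2 to 12 genes. Last exon peaks were most frequent, with 2 genes each, in clusters on chromosomes 5, 7, 11 and 17. On chromosome 7, the cluster of Zfp112, Zfp235, Zfp111, Zfp109, Zfp61 and Zfp94 spans 204 kb and had 10 peaks, with scores up to 12.2. Here the last exon of Zfp112 held 2 peaks of score 6.74, of which 1 lay ahead of the array and 1 covered 5 fingers, and that of Zfp61 held 1.

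On chromosome 11, the cluster of Zfp354c, Zfp454, Zfp2 and Zfp354a spans 262 kb and had 18 peaks, with a median score of 8.18. The strongest, 20.9, was assigned to Zfp454 but covered the start of the last coding exon of Zfp2 with 6 of its fingers. Zfp2 itself had peaks of 17.0, 10.9 and 18.6 in its introns and 10.3 in Zfp354b, and all 4 were above the upper quartile of all peaks.

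On chromosome 17, Zfp955a, Zfp955b and Zfp81 had 8 peaks in 119 kb. Zfp81 had 5, with scores from 6.10 to 8.34, the highest in its last exon over 7 fingers, and the last exon peak of Zfp955b scored 5.78 over 5 fingers. On chromosome 5, Zfp157 and Zfp68 had 3 peaks in 178 kb, with last exon peaks of 6.74 and 5.46. The largest cluster, 12 genes in 788 kb of chromosome 13, had 21 peaks and no last exon peak.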

How the data were processed

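H3K9me3 ChIP-seq libraries of BG were aligned to mm10 by the authors. The submitters' processing notes name Bowtie2 2.2.8 and HOMER 4.10.1. A read that matches several places kept 1 location, and a position kept 1 tag. Peaks were called at a false discovery rate of 0.001 and 4 times the tags of the local 10 kb. The deposited list gives each WT-specific peak's position, a peak score, its class, its nearest TSS and its repeat. How the libraries were merged, the scale of this score and the background of the call (a heading names both input and MT) are not given in the sources used here. Depth per sample is unknown.

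All 215 members were matched to RefSeq (GRCm38.p6, the same build as mm10). Peaks were counted with Python 3.11.15, pandas 2.3.3 and SciPy 1.17.1, with Wilson and Newcombe intervals whose code was checked on simulated data. Repeated words were exact 100-base matches on either strand. Members, gene lists and comparisons were chosen with earlier results of these data known. Genes named were the 10 members with most peaks, the 10 with the highest scoring last exon peak, the 5 lone members with most peaks, the members of the 3 clusters with most last exon genes (4 were tied, and those with more members were taken) and a list of 29 with a known role. Other genes named were chosen after their values were seen.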

Additional observations from a re-analysis of the deposited data

How the results depend on the processing

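The share of Zfp genes with a peak depended on how peaks were counted. It was 53.4% by the nearest TSS, 32.6% with peaks inside the gene (23.5% of all coding genes), 29.3% within 10 kb of the TSS (20.7%), 41.2% with scores at or above the median (33.6%) and 36.1% outside repeats (32.0%), above all coding genes in each case. Outside repeats the interval (31.5 to 41.0) includes the share of all coding genes, so the excess was not resolved there. The difference in score between last exon and other peaks was 3.75 points at the median and 23.5 points at the upper quartile. Over the other 4 alternatives it ran from -12.6 points to 6.39 points (overlap with the last coding exon). The lowest value, with 1 peak a gene and class, came from a count that favours the class with several peaks a gene. The difference between clustered and lone genes in last exon peaks ran from 0.407 points (scores at or above the median) to 10.9 points over 10 alternatives, of which 3, chosen after seeing the data, gave 4.85 to 8.22 points. The difference in C2H2 patterns was 75.6 points with a looser pattern and 68.9 points with at least 3. The difference in upper quartile scores between clustered and lone peaks, also chosen after seeing the data, ran from 11.2 to 16.3 points over 5 alternatives. With the median of all peaks as the cut it was smaller, at 8.09 points (0.112 to 15.9). The cause of these shifts was not tested.

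No paired analysis was possible because the libraries are merged in the list, and for that reason none was left out in turn.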
